A study of Homo sapiens with 3 samples.

Results

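The 10 genes described here are the G1 cyclins CCND1, CCND2, CCND3, CCNE1 and CCNE2, their kinases CDK2, CDK4 and CDK6, the CDK inhibitor CDKN1B and the transcription factor E2F1. They were measured in SAS, an established cell line from a squamous carcinoma of the human tongue, on 3 Affymetrix Human Gene 2.0 ST arrays. Each gene was matched by its symbol in the deposited annotation to 1 probe set, giving 10 of 53617 probe sets and 10 of 29402 genes. RNA for 2 of the arrays came from cells transfected, with Lipofectamine RNAiMAX, with siRNA against ARID1A, which encodes a component of the SWI/SNF nucleosome remodeller. RNA for the other array came from cells labelled mock. The siRNA arrays are named array 108 and array 109 after the numbers in their titles, which the labels do not explain. The mock array has the title SAS NC, and the labels do not say whether its cells received a control siRNA.

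The restriction point of the cell cycle is where a cell commits to DNA replication. Growth signals induce D-type cyclins, which pair with CDK4 or CDK6 and phosphorylate the retinoblastoma protein RB1. RB1 then releases E2F factors, which switch on the genes for cyclin E and for DNA synthesis, and cyclin E with CDK2 completes the phosphorylation. CDKN1B, also called p27, holds cyclin E and CDK2 inactive until it is degraded. In squamous carcinomas of the mouth, gain of CCND1 and loss of CDKN2A are common.

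Each value is a log2 expression value that the authors had normalized, and a difference is an siRNA array minus the mock array on that scale. Each SD of a mean difference is the spread between the siRNA arrays alone. It holds no error of the mock array, which both differences share. ARID1A was at 5.72 on array 108, 5.32 on array 109 and 6.79 on the mock array, 2.10-fold and 2.77-fold lower in the order of the siRNA arrays. The treatment label, ARID1A siRNA, does not say whether both siRNA arrays had the same siRNA. Separate cultures for these arrays are not stated in the labels. The spread between them may therefore be technical or lie between reagents, which cannot be told apart here. Precision is limited by having 2 siRNA arrays and a single mock array. The background level, given by the authors as the mean of negative controls, lay between 4.36 and 4.65, and all 10 genes lay above it on every array. Of 11 squamous epithelial markers, with list means between 7.21 and 7.49, 8 lay above it on all arrays. These were KRT5, KRT18, KRT8, TP63, SFN, EPCAM, CDH1 and DSP. The rest, KRT14, KRT6A and KRT17, lay above it on array 108 but not on array 109. Of the markers of other cell types, 5 of 6 fibroblast genes (COL1A2, COL3A1, PDGFRB, LUM and DCN), 4 of 5 leukocyte genes (PTPRC, CD3E, CD14 and ITGAM) and 2 of 3 measured endothelial genes (VWF and KDR) lay below it on all arrays, while COL1A1 and CSF1R lay above. The means of these lists ranged from 3.67 to 3.73, 3.72 to 3.98 and 3.68 to 3.73 over the arrays. In bulk RNA, fewer cells in a phase of the cycle and less RNA per cell cannot be told apart.

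The 10 genes were chosen on the log2 values of these same arrays, so their differences are described without a test. The background for each count is the set of 20582 genes whose mean log2 value was at least 3.52, the 30th percentile, and all 10 genes passed that filter. Exactly the same value on all 3 arrays was found for 38% of these 20582 genes, and for 1 of the 10, CCND3.

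CCND1, CCND2 and CDK6, the kinase partner of D cyclins, were lower on array 108 and higher on array 109 than on the mock array. CCND1, on chromosome 11, was at 8.41 on array 108, 9.13 on array 109 and 8.87 on the mock array. The mock value thus lay between the siRNA values, with differences of -0.46 and 0.26. CCND2, on chromosome 12, was at 8.49 on array 108, 9.31 on array 109 and 8.64 on the mock array. Most of its spread came from array 109, which stood 0.67 above the mock array, while array 108 stood 0.15 below it (difference -0.15). CDK6, on chromosome 7, was at 7.94 on array 108, 8.99 on array 109 and 8.46 on the mock array. Its differences of -0.52 and 0.52 were almost equal and opposite, so that their mean was 0.001 ± 0.740 (SD, n = 2). The means for CCND1 and CCND2 were -0.10 ± 0.51 and 0.26 ± 0.58 (SD, n = 2), each smaller than its own SD.

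Between the siRNA arrays these genes stood further apart than most. CDK6 was 2.07-fold higher on array 109 than on array 108 (log2 1.05), CCND2 1.77-fold (0.82) and CCND1 1.65-fold (0.72). The share of all genes at least 1.5-fold higher on array 109 than on array 108 was 2.19%, and the 10 genes gave 3. A gap of at least 2-fold in that direction was found for 0.471% of genes and for CDK6 alone among the 10. The opposite gap, at least 1.5-fold lower on array 109, was found for 1.51% of genes and 0 of the 10. CCND1 and CDK6 were at least 1.2-fold lower on array 108 and at least 1.2-fold higher on array 109 than on the mock array, with CCND1 close to that limit on array 109 at 1.201-fold. Over all genes this pattern had a share of 0.685%, and its mirror image 0.34%. Array 109 had also the higher negative control mean, 4.65 against 4.36 on array 108, and its part in these differences was not tested.

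CCND3 and CDK4, the remaining D cyclin and D cyclin kinase, showed no such split. CCND3, on chromosome 6, was at 5.10 on all 3 arrays, only 0.45 to 0.74 above the negative control means. CDK4, on chromosome 12, was at 10.18 on all 3 arrays, with a difference of -0.004 on array 108 and 0 on array 109. Together with E2F1 and CDK2 they make 4 of the 10 genes within 1.1-fold of the mock array on both siRNA arrays, a band that held 64.5% of all genes.

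**Figure D1:**
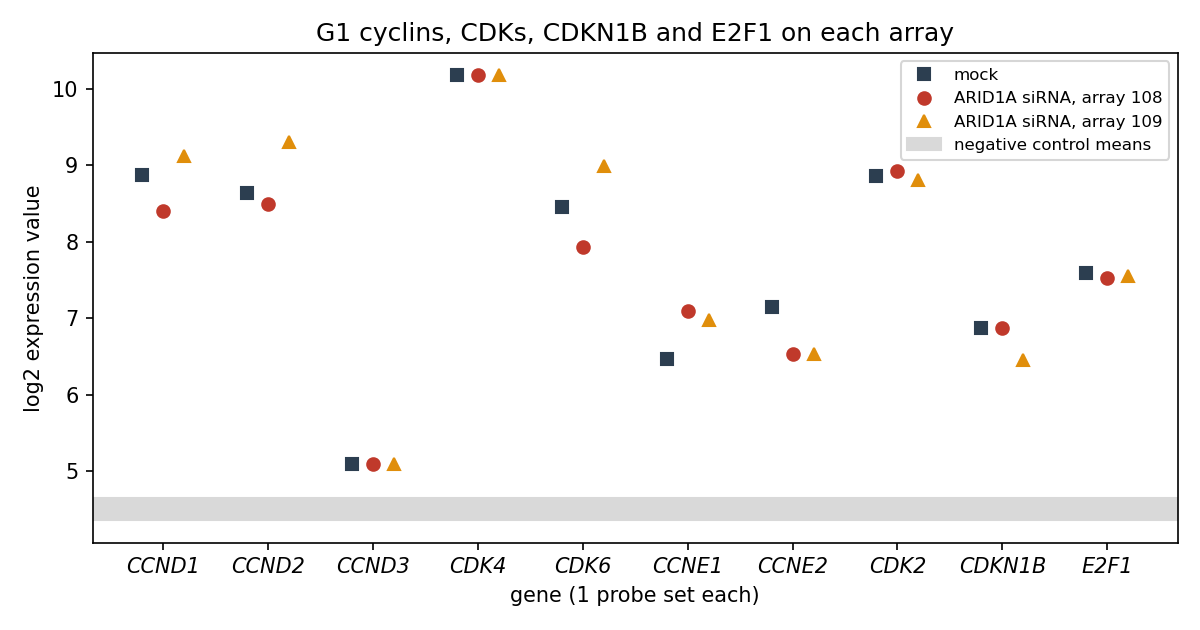
Log2 expression value (vertical axis) of the 10 genes (horizontal axis, 1 probe set each) on the mock array (squares), array 108 (circles) and array 109 (triangles); the grey band spans the negative control means of the 3 arrays. CCNE1 lies above and CCNE2 below the mock value on both siRNA arrays, while the mock value of CCND1, CCND2 and CDK6 lies between the siRNA values; each point is a single array, so there are no error bars.

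The cyclin E genes differed from the mock array in opposite directions, each the same way on both siRNA arrays. CCNE1, on chromosome 19, was at 7.10 on array 108, 6.98 on array 109 and 6.47 on the mock array. CCNE2, on chromosome 8, was at 6.54 on both siRNA arrays and 7.15 on the mock array. For neither gene did the siRNA values overlap the mock value. The mean difference was 0.57 ± 0.09 (SD, n = 2) for CCNE1. For CCNE2 it was -0.61, with an SD of 0 because its siRNA values are identical in the deposited table, so that its spread is not measured. CCNE1 was 1.55-fold higher on array 108 and 1.42-fold higher on array 109, and CCNE2 was at 0.654 of the mock value on both. The difference of CCNE1 minus that of CCNE2 was 1.24 on array 108 and 1.12 on array 109.

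CCNE1 was the single member at least 1.2-fold higher on both siRNA arrays, where the share over all genes was 2.19%, and CCNE2 the single member at least 1.2-fold lower on both, where it was 2.5%. At 1.5-fold, 0 of the 10 genes were higher on both arrays (0.34% of all genes) and CCNE2 was lower (0.272% of all genes). CDK2, the kinase that both E cyclins activate, was at 8.93 on array 108, 8.81 on array 109 and 8.86 on the mock array. Its differences of 0.07 and -0.05 had opposite signs, with a mean of 0.01 ± 0.09 (SD, n = 2).

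The stretch upstream of the annotated CCNE1 start is shown because CCNE1 was the one gene of the set that was higher on both arrays. It is taken from RefSeq, build GRCh38.p14, chr19:29811741-29811990, plus strand, and covers 250 bases up to the base before the start. Capitals mark the GC box GGGCGG, the letters to which SP1-type factors bind, or its reverse complement.
CCNE1: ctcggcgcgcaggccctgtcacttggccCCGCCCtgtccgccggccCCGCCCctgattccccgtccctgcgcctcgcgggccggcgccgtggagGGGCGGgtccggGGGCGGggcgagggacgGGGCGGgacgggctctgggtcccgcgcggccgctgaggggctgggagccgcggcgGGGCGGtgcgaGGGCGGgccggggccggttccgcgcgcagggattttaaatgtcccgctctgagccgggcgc
It holds 7 matches. The 300-base windows of E2F1, CDK4 and CDKN1B held 6, 3 and 1 matches, and those of CCND3 and CDK6 up to 5 and 3. Such matches were thus not particular to CCNE1 among the genes of the set. At least 1 match on either strand was found in 44.95% of 35116 RefSeq windows of 300 bases, which reach from 250 bases before to 50 after each start. The 300-base window of CCNE1 had a GC content of 81.0% and no match to the E2F motif used here, whose letters are TTTCCCGC, TTTCGCGC, TTTGCCGC or TTTGGCGC on either strand. A match is a description of the sequence, and its absence says only that these letters are not in the window.

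E2F1, the transcription factor released by RB1, was nearly level across the arrays. It was at 7.53 on array 108, 7.55 on array 109 and 7.59 on the mock array, on chromosome 20. Both siRNA values lay slightly under the mock value, with differences of -0.06 and -0.04, but under quantile normalization the difference on array 108 was 0.01, so the direction depends on the scaling. E2F1 is known to be a target of E2F factors itself, and its upstream sequence is shown for that reason. It is the RefSeq sequence of build GRCh38.p14, chr20:33686386-33686485, minus strand, the last 100 bases before the start, with E2F motif matches in capitals.
E2F1: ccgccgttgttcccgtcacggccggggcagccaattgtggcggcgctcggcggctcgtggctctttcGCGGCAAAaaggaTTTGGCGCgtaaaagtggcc
The matches begin 33 and 20 bases before the start, on opposite strands. Of the 10 genes, 6 had an entry among the RefSeq windows, namely CCND3, CCNE1, CDK4, CDK6, CDKN1B and E2F1, and E2F1 alone among these had a match to the E2F motif. The share over all 35116 windows was 3.31%.

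CDKN1B, the p27 inhibitor on chromosome 12, was at 6.45 on array 109, and array 108 and the mock array had an identical value of 6.88. The lower value was thus found on 1 of the 2 siRNA arrays, and the mean difference was -0.22 ± 0.31 (SD, n = 2). By direction, 1 of the 10 genes (CCNE1) was higher by any amount on both siRNA arrays, against 13.1% of all genes, and 2 (CCNE2 and E2F1) were lower on both, against 16.2%. The median difference of the 10 genes was -0.03 on array 108 and 0 on array 109, and that of all genes tested was 0 on each. The median size of the difference, without its sign, was 0.112 and 0.351 for the 10 genes and 0.012 and 0.011 for all genes. These sets are unlike, because 38% of all genes and 1 of the 10 had the same value on all 3 arrays. All 10 lay above the negative control means, where 14282 of the 20582 genes had their mean, and the 10 were chosen on these values. On array 109 the 5 differences of largest size among the 10 genes were those of CCND2, CCNE2, CDK6, CCNE1 and CDKN1B.

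**Figure D2:**
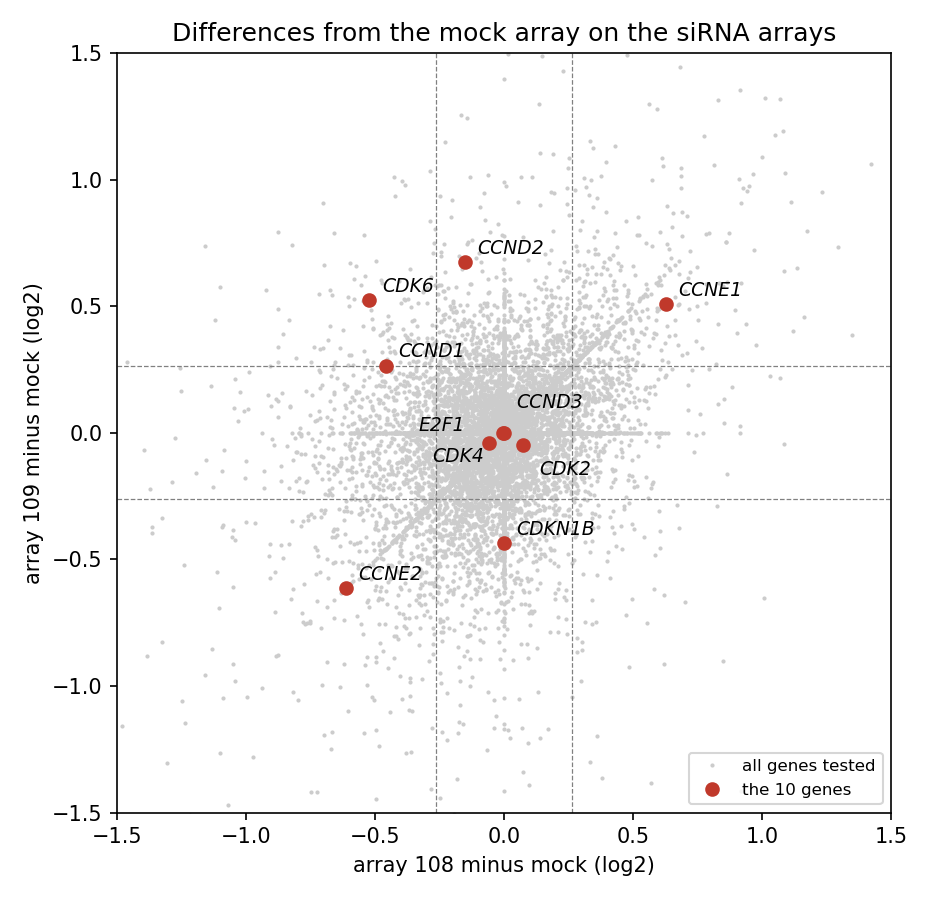
Difference from the mock array (log2) on array 108 (horizontal axis) and array 109 (vertical axis) for the genes tested (grey) and the 10 genes (red); dashed lines mark 1.2-fold, and 32 genes lie outside the axes. CCNE1 lies at the upper right and CCNE2 at the lower left. CDK6 and CCND1 lie in the upper left quadrant beyond the 1.2-fold lines, CCND1 only just. CCND3, CDK4, CDK2 and E2F1 lie near the centre, and both axes share the mock array.

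The genes around this switch were followed in 8 lists, 104 of whose 105 genes were on the array and tested. At a 5% false discovery rate limma called 0 of the 20582 genes in either direction (0%), so 0 listed genes passed. An unadjusted limma p under 0.05 was found for 228 of the 20582 genes above and 225 below the mock array. Of the 104 listed genes, 1 and 3 were among these. The lists are therefore described by direction and size. Of the 104 genes, 12 were higher and 45 lower on both siRNA arrays by any amount (11.5% and 43.3%), against 13.1% and 16.2% of all genes tested. A gene with the same value on all 3 arrays cannot count in either direction, which held for 17 of the 104 and 38% of all genes. At least 1.2-fold so were 5 and 7 of the 104 (4.81% and 6.73%), against 2.19% and 2.5% of all genes.

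The RB1 family of pocket proteins, which hold E2F factors inactive, had 0 of 3 members in the same direction on both arrays. RB1 was at 9.01 on array 108, 8.63 on array 109 and 8.80 on the mock array, on either side of the mock value. Among 6 further CDK inhibitors, 3 had the same value on all arrays, including CDKN2A, the p16 inhibitor of CDK4 and CDK6, at 5.39. CDKN1A, the p21 inhibitor and a p53 target, was at 6.74 on array 108, 6.50 on array 109 and 6.23 on the mock array, above the mock array on both by 0.51 and 0.27. CDKN2C, the p18 inhibitor of CDK4 and CDK6, was at 4.35 on both siRNA arrays and 5.22 on the mock array. Both siRNA values lay below the negative control mean, so CDKN2C was at least 1.82-fold lower on array 108 and at least 1.48-fold lower on array 109, which has the higher negative control mean. CDKN2B, the p15 inhibitor, differed by -0.08 on each array.

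Of 9 other E2F and DP factors, 2 were higher and 3 lower on both arrays by any amount (22.2% and 33.3%, against 13.1% and 16.2% of all genes). E2F8, a repressor of the family that is itself induced in S phase, was at 7.03 on array 108, 7.37 on array 109 and 7.64 on the mock array. E2F7, its close relative, was at 8.05, 8.34 and 7.87 in the same order, so the pair lay on opposite sides of the mock array. E2F4, which acts mostly as a repressor with pocket proteins, differed by -0.22 and -0.21. E2F3, the third gene counted as lower, read 4.52 on array 108 against 4.69 for mock. Its array 109 value was under the negative control mean, so there it was at least 1.03-fold lower.

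Of 37 E2F target genes of G1/S, which encode DNA replication and nucleotide synthesis proteins, 23 were lower on both siRNA arrays by any amount and 0 higher. This share of 62.2% stands beside 16.2% over all genes, a set unlike the list. Exactly the same value on all 3 arrays was found for 38% of all genes and for 4 of the 37. Of the 20582 genes, 14282 had a mean above that of the negative controls, while every listed target lay above these controls on all arrays. The list's median difference was -0.12 on array 108 and -0.06 on array 109, against 0 on each for all genes. The count of 23 was not repeated under other scalings. LIG1, named after its values were seen, is among the 23 at a difference of -0.011 on each array. TYMS, thymidylate synthase, was at 7.90 on array 108, 7.15 on array 109 and 8.39 on the mock array. GINS1, part of the replicative helicase, was at 7.33, 7.38 and 8.05 in that order. PCNA, the sliding clamp of DNA polymerases, was at 8.42, 8.70 and 9.01, and POLE2, a subunit of DNA polymerase epsilon, at 6.31 on both siRNA arrays and 6.76 on the mock array. The mean difference was -0.86 ± 0.53 for TYMS and -0.70 ± 0.04 for GINS1 (SD, n = 2). All 4 lay below the mock value on both arrays, where the same sign on both was a condition for naming them. They are 4 of the 5 listed targets at least 1.2-fold lower on both, and the fifth, CDT1, a replication licensing factor named here after its values were seen, differed by -0.27 and -0.49. The number at least 1.2-fold higher was 0. E2F1, whose product drives many of these genes, differed by -0.06 and -0.04 beside them.

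The E2F motif is shown for these 4 targets because each carries a match within the RefSeq window, with capitals marking it and 8 bases on either side. The build is GRCh38.p14, at chr20:5126666-5126689 on the minus strand for PCNA, chr18:657606-657629 on the plus strand for TYMS, chr14:49688204-49688227 on the minus strand for POLE2 and chr20:25407670-25407693 on the plus strand for GINS1.
PCNA: cgtcagggGCGGGAAAaggcgtgc
TYMS: ggacggccGCGGGAAAaggcgcgc
POLE2: cggcggtgGCGCCAAAtcgcaaat
GINS1: tttgttcgGCGCCAAAgcgcggag
Each match is on the strand opposite to the gene, so that the letters read as reverse complements. The matches begin 59 bases before the start in PCNA and 39 before it in TYMS, span the start in POLE2 and begin at base 6 after it in GINS1. Of 37 listed targets, 32 had an entry among the windows and 19 of these had a match (59.4%), against 3.99% of all 27305 genes with an entry. The list was drawn up as one of E2F targets, so this share is not independent of its definition. Lower on both siRNA arrays were 12 of the 19 with a match and 9 of the 13 without one.

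**Figure D3:**
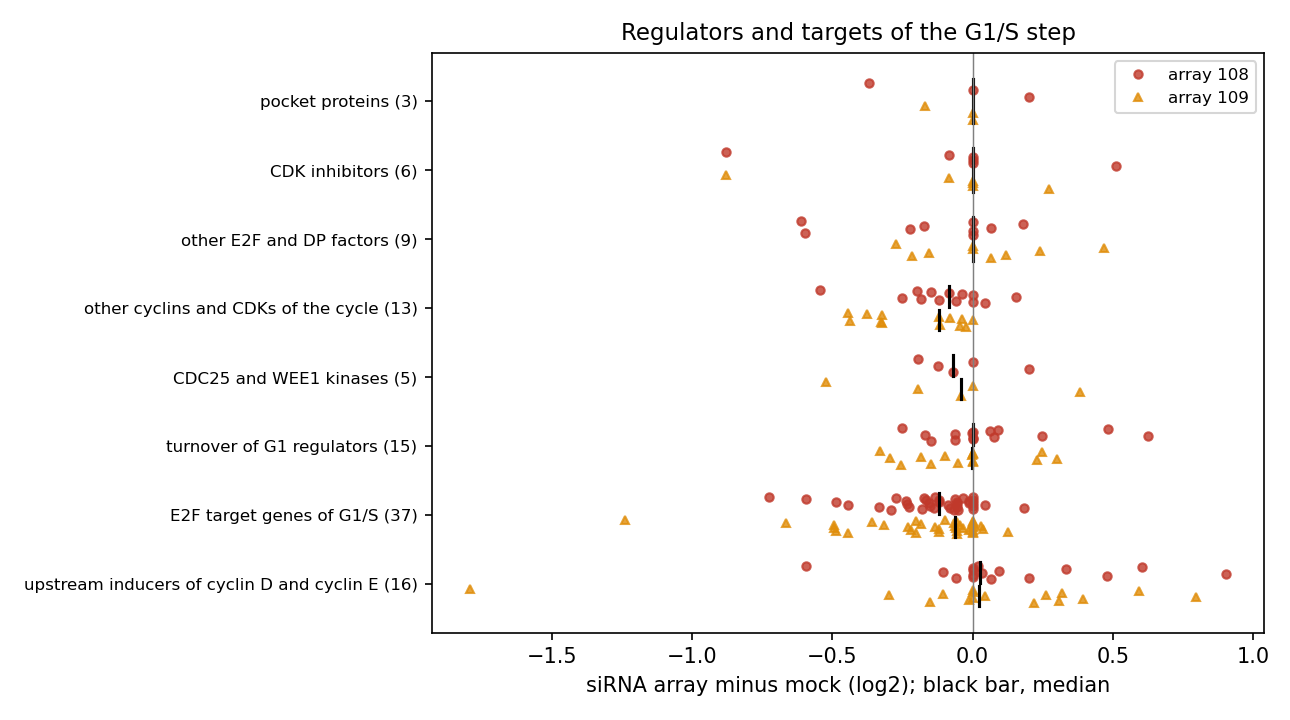
Difference from the mock array (log2, horizontal axis) of each tested gene in 8 lists (vertical axis, number of genes in parentheses) on array 108 (circles) and array 109 (triangles); black bars are list medians. The E2F target genes, the other cyclins and CDKs and the CDC25 and WEE1 kinases have medians below 0 on both arrays. The list of upstream inducers, which also holds GSK3B, has medians of 0.03 and 0.02.

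Other cyclins and CDKs of the cycle were lower by any amount on both arrays in 9 of 13 and higher in 0 (69.2% and 0%, against 16.2% and 13.1% of all genes), but 0 reached 1.2-fold on both. One of the 9, CCNA1, named after its values were seen, never exceeded the negative control mean on any of the 3 arrays. The 9 also include CCNC, CCNH, CDK7 and MNAT1, likewise named after their values were seen. MNAT1 is neither a cyclin nor a CDK. CCNB1, a mitotic cyclin, was at 8.83 on array 108, 8.76 on array 109 and 9.09 on the mock array. CCNB2, its relative, differed by -0.20 and -0.44, CCNA2, the cyclin of S phase and G2, by -0.18 and -0.33, and CDK1, their kinase, by -0.15 and -0.32. The list's median difference was -0.08 on array 108 and -0.12 on array 109. CDC25 and WEE1 kinase genes, which set the inhibitory phosphorylation of CDKs, had 2 of 5 lower on both by any amount and 0 higher (40% and 0%, against 16.2% and 13.1% of all genes). CDC25C, a phosphatase of CDK1, differed by -0.12 and -0.52 and PKMYT1 by -0.19 on each array.

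Genes for the turnover of G1 regulators had 2 of 15 higher and 4 lower on both arrays by any amount, with 0 at 1.2-fold. These shares, 13.3% and 26.7%, stand against 13.1% and 16.2% of all genes, and RBX1, a ligase subunit named after its values were seen, is counted as lower at a difference of -0.001 on each array. CKS2, a CDK subunit, differed by -0.25 and -0.30, and FBXO4, an F-box protein, by -0.17 and -0.33. FBXW7, the ubiquitin ligase subunit that marks cyclin E for degradation, was at 5.12 on both siRNA arrays and 4.87 on the mock array. USP2, a deubiquitinase of cyclin D1, was at 6.17 on array 108, 5.77 on array 109 and 5.54 on the mock array.

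Upstream inducers of D and E cyclins were higher by any amount on both arrays in 7 of 16 and lower in 2, with 4 at least 1.2-fold higher. The 16 include GSK3B, which is not an inducer of these cyclins. It was named after its values were seen, and differed by 0.20 and -0.01, so it counts in neither direction. The shares of the 16 were 43.8% and 12.5%, against 13.1% and 16.2% of all genes, and 25% at 1.2-fold, against 2.19%. STAT3, a cytokine-activated transcription factor, was at 9.86 on array 108, 10.05 on array 109 and 9.26 on the mock array. JUN, an AP-1 subunit that acts on CCND1, was at 8.87, 8.36 and 7.97 in that order. MYC, a driver of cell growth, differed by 0.33 and 0.59, and FOS, another AP-1 subunit, by 0.48 and 0.26. CCND1, to which these inducers lead, differed by -0.46 and 0.26 on the same arrays.

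By the pair of differences from the mock array, the genes nearest to CCNE1 among the 14272 genes whose mean over the arrays lay above that of the negative controls were TNFSF15, HSFX1 and MIR769. Their distances were 0.01, 0.03 and 0.05 on the log2 scale over the 2 siRNA arrays. TNFSF15, a TNF family ligand, differed by 0.63 and 0.52. Nearest to CCNE2 were CCN3, CREB3L2 and H4C5, at distances of 0.03, 0.03 and 0.06. H4C5, at 4.53 on array 109, lay below the negative control mean of 4.65 there. CCN3, a matricellular protein, differed by -0.63 on each array, and CREB3L2, a transcription factor of the secretory pathway, by -0.59 on each. With 3 arrays many genes come close by this measure: 18 genes lay within 0.1 of CCNE1 and 7 within 0.1 of CCNE2.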

How the data were processed

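Expression was measured on 3 arrays and processed by the authors with Affymetrix Expression Console, per the submitters' processing notes. Which version, probe summary, background correction and build were used is not given in the sources used here. The deposited value table is on the log2 scale, per probe set. Linear intensity and the ratio to the mock array are in the authors' deposited per-sample files, per the file headers, and their log2 matched the value table to within 5.04e-05.

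Symbols came from the deposited annotation and were updated through the Entrez identifier for 29766 of 31134 probe sets that carried 1 symbol. Where a gene had several probe sets, their mean was taken, and genes with a mean log2 under the 30th percentile (3.52) were left out. Fold rules use measured values, the same way on both siRNA arrays. Where the dimmer side lay below the negative control mean, the fold is a bound against that mean.

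The siRNA and mock arrays were compared with limma 3.58.1 in R 4.3.3 (trend, two-sided, Benjamini-Hochberg over all genes), with 1 residual degree of freedom, taking the spread of the siRNA arrays for the mock array too. Because 48.2% of genes tested had tied siRNA values, the prior (4.9 degrees of freedom) came from untied genes and was applied to all. The fit was tested on simulated data. Beyond the 5 leukocyte markers counted, 1 is not reported here. The genes and lists were chosen with earlier results of these data known. In each list up to 4 genes are named, those with the same sign on both siRNA arrays and the largest value of the smaller difference. For the most extreme gene in each direction, the 3 nearest genes are named. Alternatives covered the filter, the scaling, the probe set per gene, the prior and leaving out each siRNA array.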

Additional observations from a re-analysis of the deposited data

How the results depend on the processing

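No paired analysis was possible because both siRNA arrays are set against a single mock array. The counts of genes at least 1.2-fold from the mock array on both siRNA arrays, 451 higher and 514 lower, rest on requiring both arrays. Leaving out 1 siRNA array gives a value with no test, and counts on the remaining array of 1013 to 1183 higher and 1464 to 1482 lower. At 1.5-fold, 70 higher and 56 lower became 158 to 237 and 307 to 357. Among the 10 genes, 1 higher and 1 lower at 1.2-fold became 1 to 4 and 2 to 3, and at 1.5-fold 0 higher became 1 on either array, while 1 lower stayed 1. Without array 108 the higher genes at 1.2-fold were CCND1, CCND2, CDK6 and CCNE1. Among the listed genes at 1.2-fold, 5 higher and 7 lower became 7 to 10 and 13 to 21. Under quantile normalization CCNE2 no longer reached 1.5-fold, leaving 0 of the 10, with differences of -0.56 and -0.60. Under median centring 3 listed genes were at least 1.2-fold higher. The 0 limma calls became 999 higher and 920 lower with the prior estimated on all genes, where ties have a spread of 0, and 7 and 5 with no filter. In the other 7 limma settings they remained 0. Over scaling by quantiles, median or cyclic loess, CCNE1 and CCNE2 kept their directions on both arrays, as did CCND1, CCND2 and CDK6 on each, while E2F1 on array 108 and CDK4 on both arrays changed sign, CDK4 lying between -0.02 and 0.02 on array 109. CCND3 on both arrays and CDKN1B on array 108 moved by at most 0.06 from 0.00. Under these scalings the median difference of all genes lay between -0.021 and 0.001. Counts by any amount were not repeated under them.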

Other observations

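In the authors' deposited tables, 0 of the 10 genes carry the flag for a 2-fold difference on either siRNA array. Of all 53617 probe sets that flag marks 0.050% as higher and 0.153% as lower on array 108, and 0.110% and 0.213% on array 109. Some genes of the lists that lie outside the naming rule, chosen after their values were seen differed between the siRNA arrays. FOSL1, an AP-1 subunit, was at 9.88 on array 108, 10.79 on array 109 and 10.48 on the mock array. TFDP1, the partner with which E2F1 binds DNA, was at 7.04, 7.76 and 7.64 in that order. CDC25A, the phosphatase that activates CDK2, was at 9.09, 9.54 and 9.16. For TFDP1 and CDC25A 1 of the siRNA values lay close to the mock value, at differences of 0.12 on array 109 and -0.07 on array 108. BTRC, a substrate adaptor of an SCF ubiquitin ligase, went the other way, at 7.41, 6.75 and 6.93. NRAS, a RAS family GTPase upstream of cyclin D, was at 8.06 on array 109, against 9.85 for array 108 and the mock array alike. All of these were single readings on each array, with no test.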
